A study of Danio rerio with 30 samples.

Results

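The collagen chain genes of the adult zebrafish telencephalon were followed through the first week after a stab wound. They were taken as every gene with a single array symbol made of col, a type number, the letter a and a chain number, whose brightest probe set had a group mean above 20 on the linear scale (4.32 on the log2 scale) in any group. The brightest probe set was the one with the highest mean over all samples. Of 48 such genes on the array, 22 passed this floor and 26 did not, among 19260 genes with a single symbol. The floor was read on the highest of the 9 group means, so a gene could pass through a single group where it was high. That was so for col10a1a (skull injury at 3 dpi) and col11a1b (skull injury at 7 dpi), col8a1b passed in 2 groups, and 6 of the 22 were under the floor in intact tissue. The last gene inside it was col11a1b, with a highest group mean of 4.38, and the first outside were col23a1a at 4.28 and col9a1b at 4.27.

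RNA of the whole telencephalon of wild-type fish, aged 3 to 5 months by the sample labels, was hybridised to Affymetrix Zebrafish Gene 1.0 ST arrays. The paper's methods give a slightly older age range for its fish. In the skull injury a micro-knife was pushed down through the skull, and in the nostril injury a glass capillary entered through the nostril, each into both hemispheres. Telencephala were taken at 1, 2, 3 and 7 days post injury (dpi), with 4 samples of skull injury at 3 dpi and 3 samples in each of the other 7 injured groups, against 4 intact samples. The labels mark 2 of the 5 intact arrays as technical replicates of 1 sample, which were averaged. No source used here says whether a sample held 1 fish or several, and each p therefore reflects the spread among the samples at hand, which may be technical. In RNA of a whole telencephalon, fewer cells of a type and less RNA per cell cannot be told apart.

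Collagens are trimers of chains that share a repeating glycine motif. Fibrillar collagens (types I, V and XI here) form the fibrils of skin, bone and scar, type IV forms the network of basement membranes, and the FACIT collagens (fibril-associated collagens with interrupted triple helices) sit on the surface of fibrils. In the vertebrate brain, collagen lies mainly in the meninges and in the basement membrane around vessels, and fibrillar collagen is known for its place in the fibrotic scar of the injured mammalian central nervous system.

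No collagen chain gene passed the test in any comparison with intact tissue. The limma fit ran over all probe sets, with Benjamini-Hochberg adjustment over the 40670 probe sets above the floor, and a call was an adjusted p under 0.05. After skull injury the calls were 0 of 22 members at 1 dpi (background 0.612% of all probe sets tested), 0 of 22 at 2 dpi (0.302%), 0 of 22 at 3 dpi (7.93%) and 0 of 22 at 7 dpi (0.708%). After nostril injury they were 0 of 22 at 1 dpi (0.836%), 0 of 22 at 2 dpi (0.529%), 0 of 22 at 3 dpi (0.0861%) and 0 of 22 at 7 dpi (1.75%). At backgrounds this low, 22 genes would give few calls at the rate of all probe sets, skull injury at 3 dpi being the comparison with the highest rate. All 8 comparisons share the intact samples.

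At an unadjusted p under 0.05, 2 of 22 members passed at 1 dpi after skull injury (10.6% of all probe sets), 2 at 2 dpi (9.06%), 1 at 3 dpi (25.6%) and 3 at 7 dpi (14.9%). After nostril injury the counts were 2 of 22 at 1 dpi (10.2%), 0 at 2 dpi (12.6%), 1 at 3 dpi (7.07%) and 0 at 7 dpi (16.3%). Summed over all 14 comparisons made, 18 of 308 member tests (5.84%) had an unadjusted p under 0.05, against 12% of all tests.

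The study's own criteria were an unadjusted p under 0.05, a change of more than 1.6-fold and a linear mean above 20. They were met by 0 of 22 members at each time after skull injury, where 2.33% (1 dpi), 1.92% (2 dpi), 5.57% (3 dpi) and 2.12% (7 dpi) of all probe sets met them. They were also met by 0 of 22 at each time after nostril injury, where the background was 2.58% (1 dpi), 2.28% (2 dpi), 1.85% (3 dpi) and 2.57% (7 dpi). The paper analysed transcripts of extracellular matrix terms at 3 dpi and reported many regulated only after skull injury, but its text does not list the whole set. Its supplement prints regulated genes under enriched terms and not as full lists. These terms hold the mouse symbol COL18A1 at 2 and 7 dpi after skull injury. The paper assigned probe sets to mouse genes by genomic position, and which probe set stood behind the symbol is not given. The col18a1a mean was 4.82 in intact tissue, 4.835 at 2 dpi and 4.72 at 7 dpi after skull injury. The other type XVIII gene on the array, col18a1b, was under the floor, with a highest group mean of 3.75. A moderated F-test over the 9 groups called 0 of 22 members (10.4% of all probe sets) at an adjusted p under 0.05. At an unadjusted p under 0.05 it counted 2 (27.6%), col14a1a with an adjusted p of 0.0628 and col5a1 with 0.101.

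**Figure D1:**
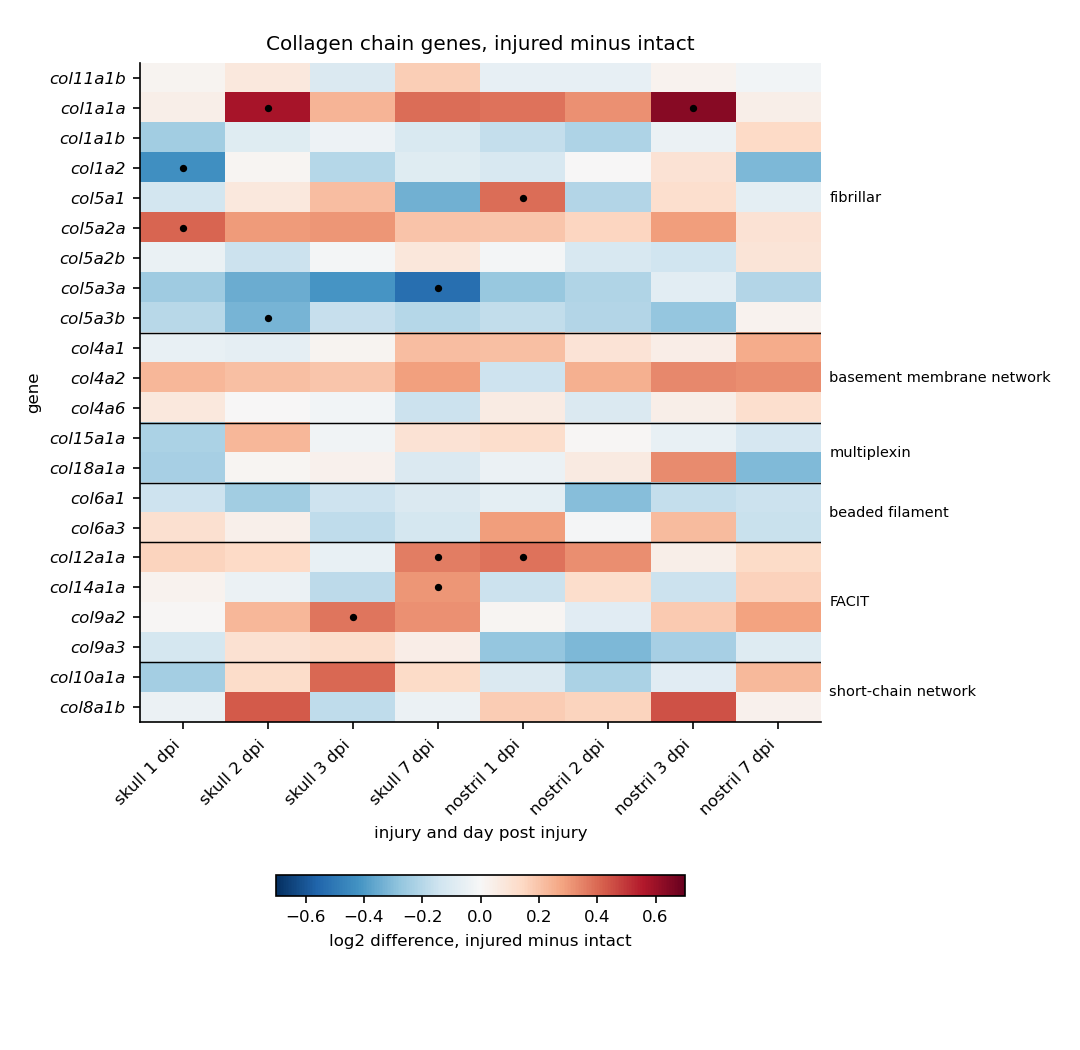
Log2 difference, injured minus intact, of the 22 collagen chain genes (rows, by class) in the 8 injured groups (columns). Red is higher and blue is lower in the injured group, and a dot marks an unadjusted p under 0.05. The 11 dots are spread over both colours and over 9 genes, and none passed the adjusted threshold.

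The intervals describe differences of array values, each taken singly and not widened for the number of pairs. Of the 22 members 16 had a mean of at most 5, near the array medians of 4.22 to 4.35. The intervals therefore do not bound the change in RNA, nor a change confined to the wound. The 95% intervals of the difference lay wholly within 1.6-fold in either direction for 137 of the 176 pairs of member and comparison, and within 2-fold for 174. Both exceptions to the 2-fold bound were col1a1a, at 3 dpi after nostril injury (0.10 to 1.18 on the log2 scale) and at 2 dpi after skull injury (0.04 to 1.12). The members' median change lay between -0.05 and 0.06 in the 8 comparisons, and the median of all probe sets tested between -0.06 and 0.01. The standard deviation within groups was 0.24 (median of the 22 members) on the log2 scale, against 0.23 over all probe sets tested. The range of the 9 group means was 0.45 (median of the members), against 0.50.

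**Figure D2:**
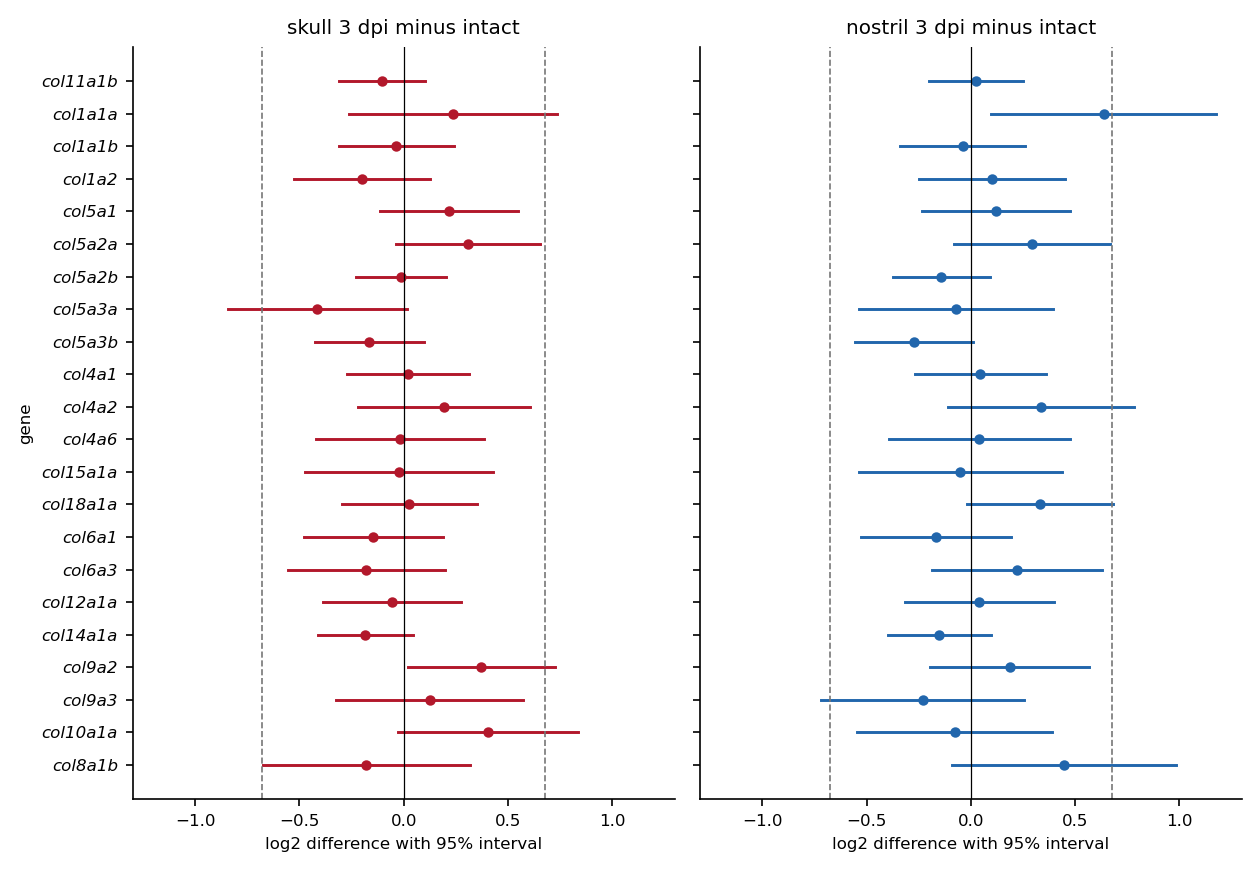
Log2 difference from intact with its 95% interval for each of the 22 genes at 3 dpi, after skull injury (left) and nostril injury (right); dashed lines mark a change of 1.6-fold. All intervals span 0 except those of col9a2 after skull injury and col1a1a after nostril injury, and that of col1a1a reaches furthest, from 0.10 to 1.18.

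The type I chains are the main fibril-forming collagen of connective tissue, and zebrafish carry col1a1a, col1a1b and col1a2 for them. For col1a1a the log2 values at 3 dpi after nostril injury were 6.16, 4.62 and 5.62, against 4.44, 4.72, 5.26 and 4.89 in intact samples. The first and the third of these injured samples lay above all intact samples and the second lay within their range. The difference was 0.64 (SE 0.26, 1.56-fold) with an unadjusted p of 0.0226 and an adjusted p of 0.604. Without the first sample it was 0.29, and without the second it was 1.06 with an adjusted p of 0.14.

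At 2 dpi after skull injury the col1a1a values were 5.45, 5.44 and 5.32, all above the 4 intact values. That difference was 0.58 (SE 0.26, adjusted p = 0.522). As group means, col1a1a stood at 4.82 in intact tissue, then at 4.87, 5.40, 5.06 and 5.21 at 1, 2, 3 and 7 dpi after skull injury. After nostril injury the means at the same times were 5.21, 5.14, 5.46 and 4.86. All 8 injured means were above the intact mean, in comparisons that share the same 4 intact samples.

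The col1a1b gene gave no such pattern. Its difference from intact ran from -0.24 at 1 dpi after skull injury to 0.14 at 7 dpi after nostril injury. The lowest adjusted p among the 8 was 0.564. At 3 dpi after nostril injury its values were 5.19, 5.02 and 4.84, against 4.85, 5.40, 5.04 and 4.95 in intact samples, and the groups overlapped.

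For col1a2, the partner chain in the type I trimer, the largest differences were downward. At 1 dpi after skull injury its values were 4.41, 4.86 and 4.78, against 4.98, 5.06, 5.23 and 5.17 in intact samples. The groups did not overlap, the difference was -0.43 (SE 0.17), the unadjusted p was 0.0188 and the adjusted p was 0.355. At 7 dpi after nostril injury the values were 4.89, 4.71 and 4.78, also below all 4 intact values, with a difference of -0.31 (SE 0.17, adjusted p = 0.374).

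**Figure D3:**
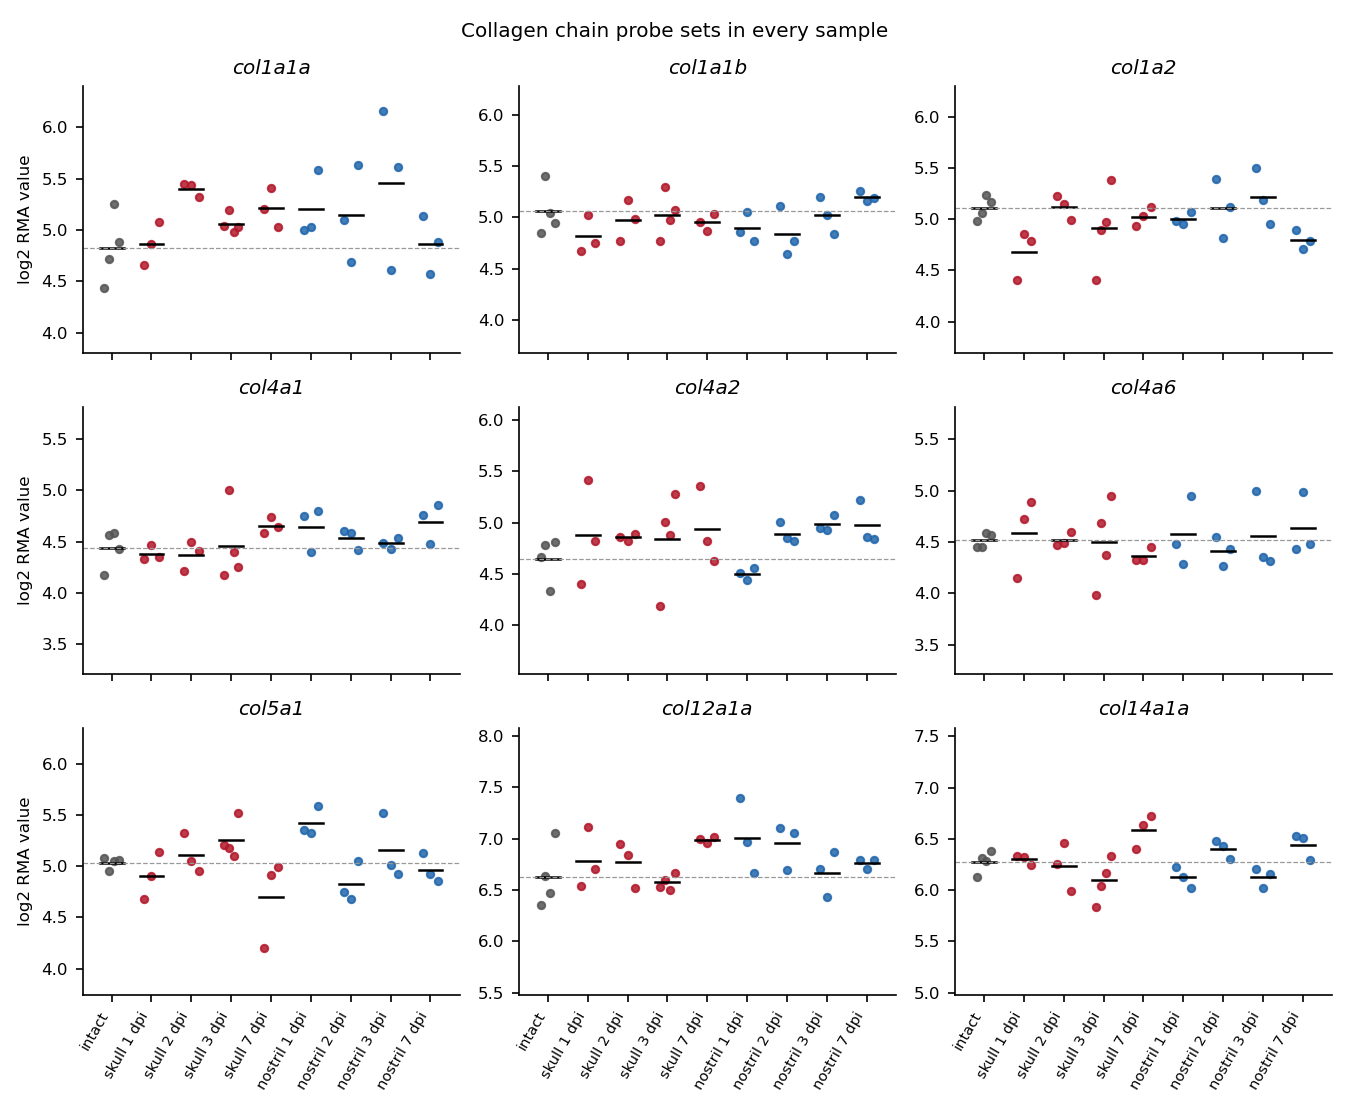
Log2 RMA value of 9 collagen chain genes in every sample, with intact samples in grey, skull injury in red and nostril injury in blue; short bars are group means and the dashed line is the intact mean. The col1a1a samples at 3 dpi after nostril injury reach from 4.62 to 6.16, and most other groups overlap the intact samples.

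Type V chains join fibrils of type I and help to start their assembly. For col5a1 at 1 dpi after nostril injury the values were 5.35, 5.33 and 5.59, against 5.08, 4.95, 5.05 and 5.06 in intact samples. The injured samples were all higher, by 0.39 on average (SE 0.17, unadjusted p = 0.033, adjusted p = 0.432). At 7 dpi after skull injury the col5a1 values were 4.2, 4.91 and 4.99, and 2 of the 3 were below every intact value.

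For col5a2a at 1 dpi after skull injury the values were 4.32, 4.79 and 4.37, against 4.02, 4.27, 4.23 and 3.82 in intact samples. These groups did not overlap, and the difference was 0.41 (SE 0.18, adjusted p = 0.427), or 0.26 without the second injured sample. The mean of col5a2a was under the floor in intact tissue and above it in 4 of the 9 groups.

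Both type V alpha 3 genes had means below intact in most injured groups, col5a3a in all 8 and col5a3b in 7. For col5a3a at 7 dpi after skull injury the values were 4.52, 5.59 and 5.05, against 5.64, 5.65, 5.66 and 5.38 in intact samples, a difference of -0.53 (SE 0.23, adjusted p = 0.265). The second injured sample lay within the intact range and the other 2 lay below it. Without the first injured sample the difference was -0.26, and without the second it was -0.80. The fourth intact sample stood apart from the other 3, toward the injured values. At 3 dpi after skull injury the values were 4.67, 5.44, 4.78 and 5.78, with 2 of the 4 below every intact sample and 1 above (difference -0.41, adjusted p = 0.215, or -0.25 without the first).

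For col5a3b at 2 dpi after skull injury the values were 4.78, 4.78 and 4.35, against 4.87, 5.13, 4.94 and 4.91 in intact samples (difference -0.32, SE 0.14, adjusted p = 0.487, or -0.18 without the third injured sample). At 3 dpi after nostril injury they were 4.71, 4.81 and 4.55, again below every intact sample (difference -0.27, adjusted p = 0.736). The remaining fibrillar members, col5a2b and col11a1b, stayed between -0.15 and 0.17 from intact in all 8 comparisons. In all, 9 of the 14 fibrillar genes on the array were members.

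Type IV collagen is the scaffold of the basement membrane around brain vessels and under the meninges. Of 6 type IV genes on the array, col4a1, col4a2 and col4a6 were members, and col4a3, col4a4 and col4a5 were under the floor in every group. For col4a1, which pairs with col4a2 in the common type IV trimer, the values at 7 dpi after nostril injury were 4.75, 4.48 and 4.85, against 4.17, 4.56, 4.59 and 4.42 in intact samples. The difference, 0.26, was the highest of the 8 for this gene, the groups overlapped, and the lowest adjusted p of the 8 was 0.426.

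For col4a2 the values at 3 dpi after nostril injury were 4.95, 4.93 and 5.07, against 4.66, 4.78, 4.33 and 4.81 in intact samples, a difference of 0.34. All 3 injured samples were higher than all intact samples. At 1 dpi after nostril injury they were 4.51, 4.44 and 4.56, with a difference of -0.14. The lowest adjusted p of col4a2 in the 8 comparisons was 0.487. For col4a6 the difference ran from -0.15 to 0.12, and no adjusted p was under 0.789.

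The multiplexins, types XV and XVIII, are proteoglycan-bearing collagens of basement membranes. For col18a1a at 7 dpi after nostril injury the values were 4.22, 4.64 and 4.67, against 4.84, 4.79, 4.83 and 4.82 in intact samples, which lay close together and above all of them (difference -0.31, SE 0.17, adjusted p = 0.376). Without the first injured sample it was -0.16. At 3 dpi after nostril injury they were 5.59, 4.73 and 5.13, on both sides of the intact values. For col15a1a the difference ran from -0.22 to 0.23.

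Type VI collagen forms beaded filaments around cells. For col6a1 all 8 differences were below 0, from -0.30 to -0.07, and the lowest adjusted p was 0.498. At 2 dpi after nostril injury its values were 6.16, 6.61 and 6.51, against 6.55, 6.88, 6.93 and 6.54 in intact samples, and the groups overlapped (difference -0.30, or -0.16 without the first injured sample). For col6a3 the differences ran from -0.18 to 0.29. The third classical chain of the trimer, col6a2, was under the floor in every group.

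The FACIT members were col9a2, col9a3, col12a1a and col14a1a, 4 of 8 such genes on the array. Types XII and XIV bind fibrils of type I, and type IX binds the fibrils of cartilage. For col12a1a at 1 dpi after nostril injury the values were 7.4, 6.96 and 6.66, against 6.35, 6.63, 6.47 and 7.06 in intact samples (difference 0.38, SE 0.17, adjusted p = 0.448, or 0.18 without the first injured sample). At 7 dpi after skull injury they were 7.00, 6.96 and 7.02, above 3 of the 4 intact values (difference 0.36, adjusted p = 0.33). Of the 8 differences of col12a1a, the one at 3 dpi after skull injury (-0.05) was below 0.

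For col14a1a at 7 dpi after skull injury the values were 6.40, 6.64 and 6.72, against 6.13, 6.32, 6.29 and 6.38 in intact samples. These were the 3 highest of the 7, the difference was 0.31 (SE 0.12, unadjusted p = 0.0159) and the adjusted p was 0.215. At 3 dpi after skull injury the values were 5.84, 6.04, 6.17 and 6.33, a difference of -0.18 with groups that overlapped.

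For col9a2 at 3 dpi after skull injury the values were 4.29, 4.59, 4.50 and 4.59, against 4.07, 4.25, 3.96 and 4.19 in intact samples. All 4 injured samples were higher (difference 0.37, SE 0.17), with an unadjusted p of 0.0388 and an adjusted p of 0.169. The intact mean of col9a2 was under the floor. For col9a3, whose product is a partner chain in type IX, the differences ran from -0.32 to 0.12.

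The short-chain members, col8a1b (a network collagen that mammals place in vessel walls and the eye) and col10a1a (type X, known from growing cartilage and bone), were above the floor in 2 groups and in 1 group. Their differences from intact ran from -0.18 to 0.44 and from -0.24 to 0.40. In col10a1a the high mean at 3 dpi after skull injury came with values of 4.12, 3.87, 4.55 and 5.28, against 4.25, 3.61, 4.08 and 4.26 in intact samples. The fourth injured sample stood above all others of the series.

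Skull and nostril injury were compared directly at each time. For the collagen chain genes the adjusted test called 0 of 22 at 1 dpi (background 0.0344%), 0 of 22 at 2 dpi (0%), 0 of 22 at 3 dpi (3.59%) and 0 of 22 at 7 dpi (0%). At an unadjusted p under 0.05 the counts were 1 at 1 dpi (6.57%), 0 at 2 dpi (2.35%), 2 at 3 dpi (21.3%) and 0 at 7 dpi (2.89%). The study's criteria were met by 0 of 22 at every time, against 1.36% (1 dpi), 0.716% (2 dpi), 4.57% (3 dpi) and 0.75% (7 dpi) of all probe sets.

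At 1 dpi the gene behind the count was col5a1, with 4.68, 4.90 and 5.14 after skull injury and 5.35, 5.33 and 5.59 after nostril injury. The groups did not overlap, and the difference was -0.52 (SE 0.18, 95% interval -0.90 to -0.14, adjusted p = 0.593). At 3 dpi they were col8a1b and col10a1a, both of which had their highest group mean, the value the floor was read on, in this comparison, so their differences are given as a description. For col8a1b the values were 4.28, 3.38, 3.53 and 4.05 after skull injury and 5.18, 4.07 and 4.05 after nostril injury (difference -0.62, SE 0.26). Here 1 library set the size, and without the first nostril sample the difference was -0.25.

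For col10a1a at 3 dpi the values were 4.12, 3.87, 4.55 and 5.28 after skull injury and 4.0, 3.92 and 3.99 after nostril injury, a difference of 0.48 (SE 0.23). Again 1 library set the size: without the fourth skull sample the difference was 0.20.

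Late and early times were compared within each injury. At 7 dpi against 1 dpi the test called 0 of 22 members after skull injury (background 0.551%) and 0 of 22 after nostril injury (5.3%). At an unadjusted p under 0.05 1 member passed after skull injury (9.76%) and 3 after nostril injury (19.2%). For col14a1a the values after skull injury were 6.40, 6.64 and 6.72 at 7 dpi, against 6.34, 6.33 and 6.24 at 1 dpi (difference 0.29, adjusted p = 0.45). After nostril injury they were 6.52, 6.51 and 6.29 at 7 dpi, against 6.22, 6.13 and 6.03 at 1 dpi (difference 0.31, adjusted p = 0.166).

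In both injuries the later col14a1a samples were all higher than the earlier ones. After nostril injury col5a1 was 5.12, 4.92 and 4.85 at 7 dpi, against 5.35, 5.33 and 5.59 at 1 dpi (difference -0.46, adjusted p = 0.16). The third gene, col6a3, had 4.07, 4.01 and 4.25 at 7 dpi, against 4.26, 4.68 and 4.73 at 1 dpi (difference -0.45, adjusted p = 0.245).

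Single libraries lay high or low over many collagen chain genes. The same counts were not made over all probe sets, so they are not shown to be particular to collagens. In the first sample of nostril injury at 3 dpi, 6 of the 22 members had their highest value of the whole series and 18 lay above their group mean. Besides col1a1a, they included col18a1a at 5.59, col8a1b at 5.18, col6a3 at 4.93 and col1a2 at 5.50. In that library sparc, a collagen-binding matrix protein, was at 9.07, against 8.47 and 8.45 in the other two of its group. Of the fibroblast and meninges markers given below, the receptor gene pdgfra was at 6.25, against 5.62 and 5.87. It is not specific to these cells, and the paper links PDGF signalling to the proliferation of oligodendrocyte progenitors. The proteoglycan gene dcn of the same list was at 8.38, between the other values of 7.47 and 8.49. The skin keratin gene krt5 was at 4.3, against 5.98 and 7.05. The part of these levels in the collagen values was not tested.

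In the first sample of skull injury at 3 dpi, by contrast, 5 members had their lowest value of the series and 2 lay above their group mean, while the fourth sample had 17 above it. Samples of that group also resembled each other less over all probe sets, with correlations of 0.963 to 0.974, against 0.979 to 0.988 in the other groups. The median standard deviation in that group was 0.24 for the members and 0.28 for all probe sets tested, so a wide spread there was not particular to the members. Array medians lay between 4.22 and 4.35, close to the floor of 4.32, so many members were near the middle of all probe sets.

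**Figure D4:**
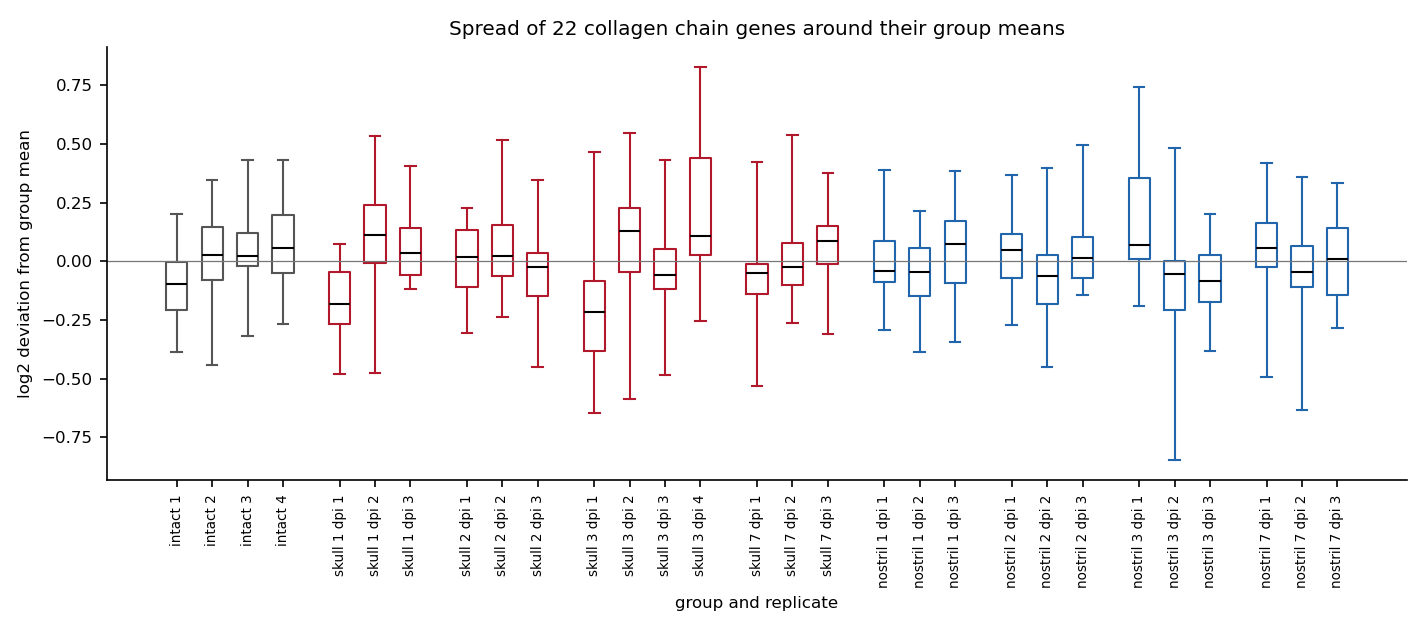
Log2 deviation of the 22 collagen chain genes from their group means in each of the 29 samples. The line is the median, the box spans the middle quartiles and the whiskers reach the lowest and highest gene. The first sample of skull injury at 3 dpi lies low (2 genes above the group mean) and the fourth sample of that group and the first of nostril injury at 3 dpi lie high (17 and 18 genes).

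Chains that form a trimer together were set against each other over samples, as deviations from group means over 29 samples, for 7 pairs chosen with the values known. For col1a1b and col1a2 Pearson's r was 0.50 (permutation p = 0.0396) and Spearman's rho 0.40 (permutation p = 0.0898). For col5a1 and col5a2b they were 0.57 (permutation p = 0.0414) and 0.47 (permutation p = 0.0505). For col1a1a and col1a2 they were 0.35 (permutation p = 0.146) and 0.52 (permutation p = 0.0173).

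Over the 7 pairs the lowest adjusted p was 0.145 for r and 0.121 for rho, so none held after adjustment. Leaving out the 2 samples farthest from the median of the first gene gave r of 0.63, 0.52 and 0.31 for these pairs. The r of col4a1 with col4a2 was 0.21 (permutation p = 0.50) and moved to -0.04 without the 2 farthest samples. The remaining pairs lay between -0.11 and 0.27. Over all 231 pairs of members the median r was 0.17.

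Genes that make, cut and bind collagen were taken from 7 lists. Intracellular processing showed no call against intact tissue. Of 24 tested genes for prolyl and lysyl hydroxylases, chaperones and secretion, 0 passed the limma test in each of the 8 comparisons. At an unadjusted p under 0.05, 2 to 5 passed, where 7.07% to 25.6% of all probe sets tested did. For p4hb, a subunit of prolyl 4-hydroxylase, the values at 1 dpi after skull injury were 9.29, 9.44 and 9.45, against 8.94, 9.0, 9.05 and 9.14 in intact samples (difference 0.36, adjusted p = 0.18). The chaperone of procollagen serpinh1b had a mean under the floor in every group, so it was not among the tested genes. Its values spanned 4.05 to 4.24 at 3 dpi after nostril injury, against 3.44 to 3.66 in intact samples. The paper lists collagen fibril organization among terms regulated only after nostril injury at 3 dpi, through the mouse symbols P4HA1, FOXC1 and SERPINH1. Its genes regulated at 3 dpi after skull injury and at no time after nostril injury also hold P4HA1 and FOXC1. Which probe sets stood behind these symbols is not given.

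Of 15 tested genes of propeptide cleavage and cross-linking, 1 rose against intact tissue, pcolce2b, an enhancer of procollagen cleavage. It was higher by 1.26 (SE 0.20, adjusted p = 0.00127) at 1 dpi after nostril injury, where 0.836% of all probe sets were called in either direction. In direct comparison at 3 dpi, the procollagen protease gene bmp1b was lower after skull injury than after nostril injury, by 1.2 on the log2 scale (adjusted p = 0.0125).

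Among 13 tested genes of collagen degradation and uptake, a list that also holds inhibitors of metalloproteases, none fell against intact tissue. After nostril injury 3 rose at 1 dpi (background 0.836% of all probe sets called in either direction), 2 at 2 dpi (0.529%), 1 at 3 dpi (0.0861%) and 1 at 7 dpi (1.75%). After skull injury 0 rose at 1 dpi (0.612%), 1 at 2 dpi (0.302%), 2 at 3 dpi (7.93%) and 0 at 7 dpi (0.708%). The list as a whole did not rise at 3 dpi after skull injury. Its median change there was -0.14, against -0.06 over all probe sets tested. At an unadjusted p under 0.05, 2 of the 13 were higher and 1 lower (25.6% of all probe sets in either direction). The paper, with its own unadjusted criteria for genes, lists collagen catabolic process among terms shared by both injuries at 1, 2 and 3 dpi. For mmp9, a gelatinase that cuts denatured collagen, the values at 3 dpi after skull injury were 6.22, 6.61, 6.17 and 5.53, against 3.75, 4.65, 4.05 and 4.67 in intact samples. All injured samples were higher, by 1.85 on average (SE 0.32, adjusted p = 0.00166). After nostril injury mmp9 rose by 1.48 at 1 dpi (adjusted p = 0.0385) and by 1.59 at 2 dpi (adjusted p = 0.0352).

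For ctsk, encoding cathepsin K, a lysosomal protease able to cut fibrillar collagen, the values at 3 dpi after skull injury were 7.39, 8.0, 6.83 and 7.14, against 5.64, 5.67, 5.75 and 6.35 in intact samples. The difference was 1.49 (SE 0.24, adjusted p = 0.00076), and ctsk also rose at 2 dpi after skull injury and at 2 and 3 dpi after nostril injury. At 1 dpi after nostril injury timp2b, an inhibitor of metalloproteases, rose by 1.6 and mmp14b, a membrane-bound collagenase, by 1.12. The call at 7 dpi after nostril injury was another inhibitor, timp2a, higher by 0.53 (adjusted p = 0.0375). In direct comparison at 3 dpi the gelatinase gene mmp2 was lower after skull injury than after nostril injury, by 0.80 on the log2 scale (adjusted p = 0.0385).

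Microglia and macrophages can express ctsk and mmp9. Of 16 tested markers of these cells, 10, 10, 13 and 0 rose at 1, 2, 3 and 7 dpi after skull injury, and 6, 12, 1 and 0 after nostril injury. The shares of all probe sets called in either direction were 0.612%, 0.302%, 7.93% and 0.708% after skull injury. After nostril injury they were 0.836%, 0.529%, 0.0861% and 1.75%. Of the 13 degradation genes, 0 were called at 1 dpi after skull injury. At an unadjusted p under 0.05, 4 of them were higher and 0 lower there (10.6% of all probe sets in either direction). The means of ctsk, mmp9 and mmp14b in that group were 6.76, 5.13 and 6.35, against 5.85, 4.28 and 5.59 in intact tissue. At 3 dpi after nostril injury, where ctsk rose by 1.5, 13 markers had an unadjusted p under 0.05 (7.07%). Their part in the protease values was not tested.

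**Figure D5:**
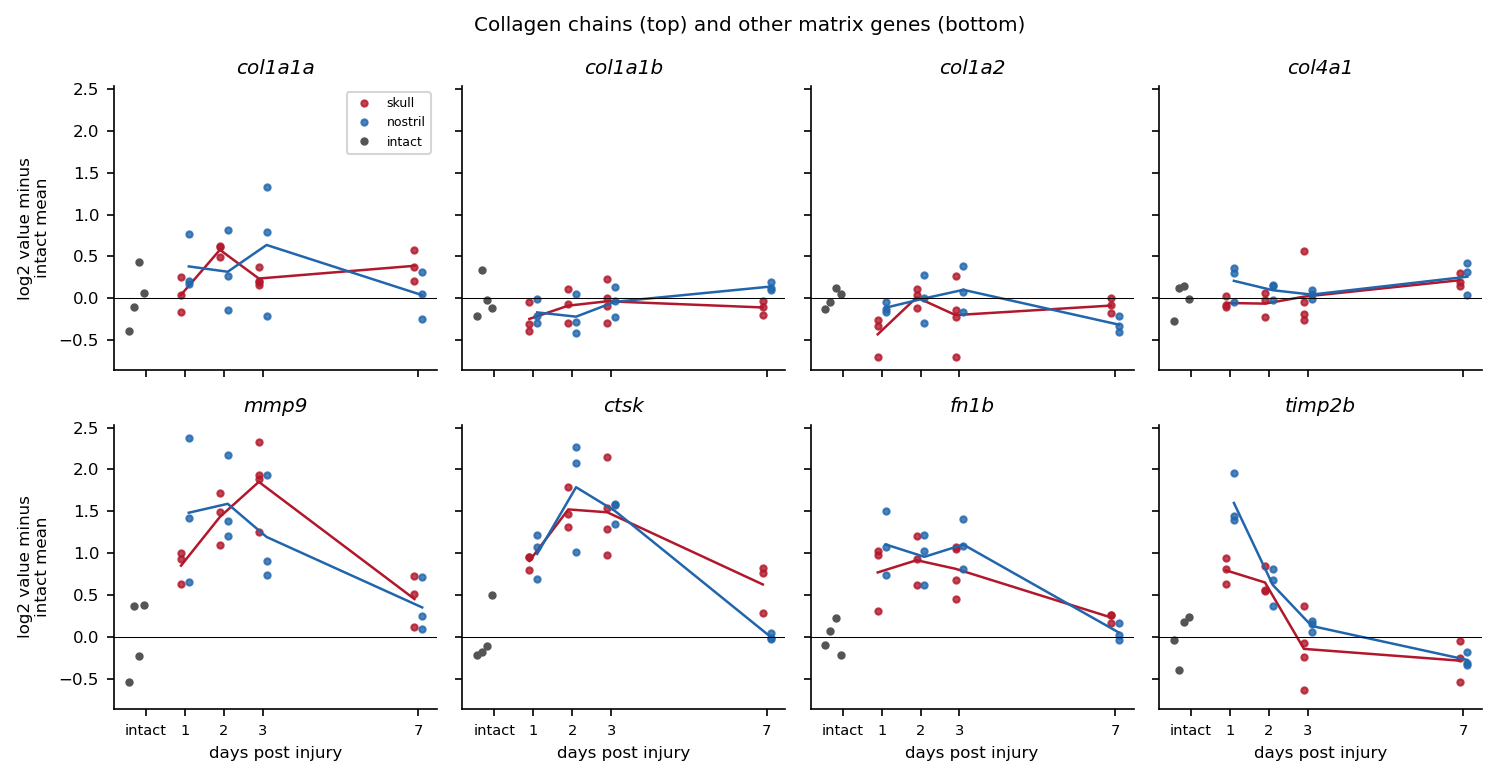
Log2 value minus the intact mean, by days post injury, for 4 collagen chain genes (top) and 4 other matrix genes (bottom), on 1 shared scale. The bottom genes are the proteases mmp9 and ctsk, the provisional matrix gene fn1b and the metalloprotease inhibitor timp2b. Each of these 4 was called against intact tissue in some comparison. Points are samples and lines join group means of skull (red) and nostril (blue) injury. At 3 dpi after skull injury mmp9 averaged 1.85 and ctsk 1.49 above intact, while all group means of the 4 collagen genes lay between -0.43 and 0.64.

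Partners of collagen outside the cell changed in single genes. Of 14 tested basement membrane partners, fn1b, a fibronectin gene of provisional wound matrix, was the one that rose. It was higher by 1.11 at 1 dpi, 0.96 at 2 dpi and 1.1 at 3 dpi after nostril injury, and by 0.81 at 3 dpi after skull injury. At 1 and 2 dpi after skull injury fn1b was not called, with means of 5.54 and 5.68, against 4.77 in intact tissue. All samples of these 2 groups lay above every intact sample. Of 9 tested collagen receptors, the integrin gene itgb1b rose by 0.99 at 1 dpi after nostril injury. Of 20 tested genes of the TGF-beta and connective tissue growth factor pathway, tgfb1a rose by 0.91 in the same group. Of 12 tested small leucine-rich and fibril-associated partners, emilin1b fell by 0.91 at 3 dpi after skull injury. After nostril injury the shares of all probe sets called in either direction were 0.836% at 1 dpi, 0.529% at 2 dpi and 0.0861% at 3 dpi. At 3 dpi after skull injury the share was 7.93%.

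Markers of cells that make collagen in and around the brain were measured beside the members. Of 24 fibroblast and meninges markers, 17 were above the floor. Their summed linear level spanned 2330 to 3540, 2854 to 3464, 1953 to 2609 and 2302 to 2929 at 1, 2, 3 and 7 dpi after skull injury. After nostril injury it spanned 3617 to 3858, 2424 to 3032, 3062 to 3904 and 2305 to 2923 at these times, against 2919 to 4657 in intact samples. The gene ptgdsb.1, a meningeal prostaglandin synthase, fell at 3 dpi after skull injury, by 1.21 (adjusted p = 0.0135). Its log2 mean was 9.24 there, against 10.45 in intact tissue. So bright a gene weighs heavily in the linear sum, and its fall and the low sum in that group are not separate observations. Against intact tissue the other calls were tbx18, lower at 7 dpi after nostril injury, and si:dkey-164f24.2, higher at 7 dpi after skull injury. Between injuries at 3 dpi, foxd1 and ptgdsb.1 were lower after skull injury, by 0.90 and 1.11 (adjusted p = 0.0495 and 0.048). In that comparison 7 of the 17 markers were lower and 0 higher at an unadjusted p under 0.05 (21.3% of all probe sets). At 7 dpi against 1 dpi, 1 marker rose and 3 fell after nostril injury (5.3% of all probe sets called in either direction), and 1 rose after skull injury (0.551%). Against intact tissue the shares called were 7.93% at 3 dpi and 0.708% at 7 dpi after skull injury, and 1.75% at 7 dpi after nostril injury. Between injuries at 3 dpi 3.59% were called. The proteoglycan gene dcn had group means from 7.6 to 8.16 and lum was under the floor in every group.

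Of 23 markers of skin, bone, cartilage and muscle on the array, 9 were above the floor and 0 passed the limma test in the 8 comparisons, with up to 2 at an unadjusted p under 0.05. Their summed linear level spanned 494 to 3745 over all samples, the intact ones alone spanning 612 to 1990. Of 15 mural cell markers 0 were called in the 8 comparisons, with up to 4 at an unadjusted p under 0.05. In these comparisons 7.07% to 25.6% of all probe sets passed that unadjusted threshold. Of 20 endothelial markers she rose at 1 dpi after nostril injury (0.836% of all probe sets called) and at 3 dpi after skull injury (7.93%). At an unadjusted p under 0.05, 8 were higher and 0 lower at 1 dpi after nostril injury (10.2%). After skull injury 5 were higher at 1 dpi (10.6%) and 4 at 3 dpi (25.6%), with 0 lower. Their summed linear level at 1 dpi after nostril injury was 1224 to 1479, against 952 to 1037 in intact samples. The neuronal gene elavl3 marks nervous tissue and does not check which brain region was taken. Its highest group mean, 11.62, was at 7 dpi after skull injury. Its lowest was at 3 dpi after skull injury (samples from 10.64 to 11.37), against a mean of 11.3 in intact tissue.

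Markers of ependymoglia, the radial glia of the fish brain, and a mixed list of telencephalon and neuron markers were also read at 3 dpi after skull injury. Of 14 tested ependymoglia markers 6 fell there (7.93% of all probe sets were called in either direction), with a median change of -0.57. Among them were gja1b (a gap junction gene) by 1.17 and cyp19a1b (brain aromatase) by 0.67. The median covers all 14 markers. Their summed linear level was 12660 to 16520 there, against 18590 to 24110 in intact samples. In the other groups, s100b and id1 of this list fell at 7 dpi and gfap rose at 1 dpi after nostril injury (1.75% and 0.836% of all probe sets called). Of 12 tested telencephalon and neuron markers at 3 dpi after skull injury 0 were called and 7 were lower at an unadjusted p under 0.05. In that comparison 7.93% of all probe sets were called and 25.6% had an unadjusted p under 0.05, in either direction. The values of elavl3 were 10.79, 11.37, 10.64 and 11.20. The part of these shifts in the collagen values of that group was not tested.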

How the data were processed

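Whole telencephalon RNA was amplified and hybridised by the authors to Affymetrix arrays. The deposited values are log2 expression per probe set, normalized by the authors with RMA (median polish, sketch-quantile) in Affymetrix Expression Console 1.3; no depth applies to arrays, and the number of arrays limits the precision. Genes were named from the platform annotation, by probe sets with a single symbol. A gene was read from its brightest probe set, and levels were not compared between probe sets. In R 4.3.3, limma 3.58.1 (lmFit, eBayes) was fitted to 75212 probe sets and 9 groups (29 samples after averaging the technical pair), adjusted over 40670. Figures and permutations (100000 resamples, within groups) used Python 3.11.15. The fit was tested on simulated data. Alternatives covered normalization, weights, filters, samples and probe sets. Members and gene lists were chosen with earlier results of these data known. Genes named with values were the 2 with the smallest p against intact in each comparison, the type I and IV chains and those with the 5 highest means; col8a1b, col10a1a and col6a3 were added after their values were seen.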

Additional observations from a re-analysis of the deposited data

Results flagged for a closer look

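In groups of 4 samples, the gap of the highest or lowest sample to its neighbour was set against the group's whole range for each of the 22 genes, in skull injury at 3 dpi and in intact tissue, 44 groups in all. Dixon's critical value at the 95% level was passed once, and chance passes it in about 1 of 20 groups. The gene was col5a3a, where the fourth intact sample lay at 5.385 on the log2 scale while the other intact samples lay between 5.637 and 5.655 (gap over range 0.935).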

How the results depend on the processing

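The counts of called collagen chain genes were recomputed 232 times, over 14 comparisons and their alternatives. They were 0 each time except 1: skull minus nostril at 3 dpi ranged from 0 to 1 call when each sample was left out in turn, the call being col10a1a (0.68) without the second skull sample, a gene that is a member only through that skull group, so the call carries no weight. The same gene, read as the mean of all its probe sets, differed by 0.04. The study's criteria gave a count above 0 in 11 of 200 recomputations, through col1a1a (nostril at 3 dpi, skull at 2 dpi, skull minus nostril at 3 dpi), col8a1b (skull minus nostril at 3 dpi) and col5a3a (skull at 7 dpi). Among them, col1a1a at 3 dpi after nostril injury passed with arrays centred on their medians (0.68, adjusted p = 0.519), and col5a3a passed without the second skull sample at 7 dpi (-0.80, adjusted p = 0.13). Of 401 recomputed differences of named genes, 0 changed sign. Leaving out 1 library moved 10 of 24 differences of named genes by over 1.5 times, as given beside each, none of them called.

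Same-numbered samples did not deviate together (correlations of -0.12 to 0.16 over 43 pairs), so the numbers were not taken as pairs. With the replicate number as a block the adjusted count was 0 in every comparison, and col8a1b met the study's criteria at 3 dpi between injuries (-0.73). Of the recomputed medians over the members, 4 moved by more than their spread between samples (0.09), among them skull minus nostril at 3 dpi (0.07 without the first skull sample). With no floor, 0 of all 48 collagen genes were called in any comparison, with up to 6 at an unadjusted p under 0.05. The F-test and a fit without skull injury at 3 dpi were added after the data were seen, and the second left all counts at 0. The cause of these shifts was not tested. The median half-width of a member's 95% interval was 0.34 to 0.39 on the log2 scale, which limits how small a change could be seen.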
